A study of Mus musculus with 8 samples.

Results

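Internal coding exons are the parts of a gene that code for protein and lie in neither the first nor the last exon of the transcript. Their DNA methylation was read here at 112973 cytosines of the 2131605 in the deposited table. A cytosine belonged to the set when it was autosomal, lay in the coding sequence of an internal exon of at least 1 curated RefSeq transcript (NM), and was more than 2 kb from every transcription start site (TSS) of curated transcripts on mm10. The cytosines fell in 18490 exons of 7647 genes. The annotation holds 159300 autosomal internal coding exons of 16461 genes, counted without the limit on TSS distance. The median exon held 4 covered cytosines and was 148 bases long, and all but 1 of the cytosines were followed by G in the reference, so they are called CpGs below. In 1587 of them another curated transcript has its first or last exon at the same place.

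The samples were type A spermatogonia, the dividing precursors of sperm, taken from C3H/HeN mouse pups on postnatal day 6 with magnetic beads carrying an antibody to CD49f (Itga6). The drinking water of the arsenic dams held 85 ppm sodium arsenite between gestational days 8 and 18, and dams of the control group drank tap water. Each of the 4 control and 4 arsenic samples was a pool of 8 testes from 4 mice, so a sample averages several animals. The p-values measure the spread between pools, except in the likelihood-ratio test of single CpGs, which sums the reads of a group. Methylation was measured by reduced representation bisulfite sequencing (RRBS), in which MspI cuts the DNA at CCGG and bisulfite turns unmethylated cytosines into bases read as T.

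The cell label was set against promoters with a known state in the germ line. Of 13 promoters that are unmethylated in germ cells and methylated in somatic cells, such as those of Ddx4 and Dazl, 12 were covered, and their mean level was 83.5%, between 81.5% and 85.5% in the 8 samples, against a median of 1.76% over 12637 promoters. Of 11 maternally imprinted promoters, unmethylated on both alleles in male germ cells and methylated on 1 allele in somatic cells, 8 were covered and averaged 59.0%, between 55.2% and 62.6%. Both lists go against the label in both groups, with the germ line promoters from 60.7% at Tdrd1 to 94.9% at Dazl and none near 0%, and the label is kept below as a name only. The germ line list averaged 83.5% in both groups, with an SD of 1.53 in control and 1.64 in arsenic samples. The imprinted list lay between 60.2% and 61.2% in control samples and at 55.4%, 56.0%, 55.2% and 62.6% in arsenic samples 1 to 4. The part of other cells in the results was not tested. In a mixed sample a change in the share of a cell type and a change within a cell type cannot be told apart.

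In mammals DNA methyltransferases copy and set methyl groups on cytosines that precede G, and most of the genome is methylated except CpG islands, which are often promoters. Bodies of transcribed genes are methylated too, and in many tissues exons carry more methylation than the introns beside them. A methylated cytosine turns easily into thymine, so a CpG inside a codon is also a place where the protein sequence is prone to change.

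The range of states inside coding sequence is shown by short stretches of exons at both ends of the scale, chosen as the least and the most methylated exons with at least 10 covered CpGs. The stretches are read 5′ to 3′ on the coding strand of GRCm38.p6, and capitals mark CpGs with a covered cytosine. The first 3 come from exons with almost no methylation and the last 3 from exons that were almost fully methylated.
Vsig10l exon 4, chr7:43465318-43465347, plus strand: ggccccctcgCGgcCGccCGCGgacatCGc
Cacna2d2 exon 38, chr9:107527180-107527209, plus strand: gtgcagagacCGagatacCGaagaggtcCG
Tfap2a exon 5, chr13:40723091-40723120, minus strand: CGCGtCGctcctgggCGgagtactgCGgag
Ap2a2 exon 4, chr7:141598838-141598867, plus strand: gtagcCGtgagatggCGgaggccttCGcCG
Snx4 exon 2, chr16:33264324-33264353, plus strand: CGgaaggaaCGcCGtgaacatgcaagaaac
Gcn1 exon 32, chr5:115598816-115598845, plus strand: CGgaagtgcatgttagatgcagCGctCGCG

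The exons of these stretches differed by almost the whole scale. The exon of Vsig10l, which encodes an immunoglobulin-domain protein, had a mean level of 0.295% over the 8 samples and lay between 0% and 0.711% in each. Its CpGs were 2177 bases or more from a curated TSS but only 484 bases from the TSS of a predicted transcript. Exon 38 of Cacna2d2, which encodes an auxiliary subunit of voltage-gated calcium channels, had a level of 0.399%, and exon 5 of Tfap2a, which encodes the transcription factor AP-2 alpha of the neural crest, had 0.526%. Also at this low end were exon 13 of Celf4, which encodes a neuronal RNA-binding protein, with 0.389%, exon 7 of Fcmr, which encodes the receptor for the constant part of IgM, with 0.488%, and exon 2 of the zinc finger gene Zfp608 with 0.630%. The CpGs of the Zfp608 exon were 2047 bases or more from a curated TSS and 1658 bases from that of a predicted transcript. At the other end stood exon 4 of Ap2a2, a subunit of the clathrin adaptor AP-2, with 98.2%, exon 2 of the sorting nexin gene Snx4 with 98.2%, exon 32 of Gcn1, an activator of the kinase Gcn2, with 97.8%, and exon 3 of Lpar1, a receptor for lysophosphatidic acid, with 97.8%. None of these 10 exons passed the test between control and arsenic samples. The largest difference among them was that of Gcn1, with 98.4% ± 0.673 in control and 97.3% ± 0.556 in arsenic samples.

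Most internal coding exons were highly methylated. Of the CpGs, 67.2% had a mean level above 80% and 9.88% one below 20%. Of 8327 exons with at least 5 covered CpGs, 5672 (68.1%) were above 80%, 1612 lay between 50% and 80%, 483 between 20% and 50%, and 560 (6.73%) below 20%. The 560 low exons belonged to 455 genes. They were richer in CpG, with a median observed over expected CpG ratio of 0.728 against 0.539 in the exons above 80%, and they lay nearer to a TSS, with a median distance of 6477 bases against 15583.5. Exons next to each other in a transcript were related, taken over exons with at least 3 covered CpGs. Over 2121 pairs of consecutive exons, which share genes and libraries, the levels correlated across pairs with a Pearson r of 0.611 and a Spearman correlation of 0.479, and the median difference within a pair was 6.59 points. In the 440 genes with 5 or more such exons, the median range from the lowest to the highest exon was nevertheless 35.8 points.

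The level rose with the exon number, apart from a flat stretch over exons 5 to 9. It was 68.8% in exons numbered 2, 70.4% in exons 3, 73.2% in exons 4, 76.8% in exons 5 to 6, 76.7% in exons 7 to 9, 78.5% in exons 10 to 14, 78.6% in exons 15 to 19, 80.5% in exons 20 to 29 and 81.2% in exons numbered 30 or more. The share of CpGs below 20% fell along the same order from 16.0% to 5.74%. Later exons also lay farther from a TSS, with a median distance of 6840 bases for exons numbered 2 and 33616 bases for those numbered 30 or more. The level itself rose with that distance, from 66.6% at 2 to 5 kb through 73.4%, 78.2% and 80.2% to 82.5% at 50 to 100 kb, and was 78.3% beyond 100 kb.

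Taken at a fixed distance, the level followed the exon number step by step at 2 to 5 kb and in no other distance class. At 2 to 5 kb the level rose from 60.1% ± 0.308 in exons numbered 2 to 80.9% ± 0.204 in exons numbered 20 or more (SD over 8 samples). At 5 to 10 kb the values of these 2 classes were 71.5% and 72.5%, at 10 to 20 kb 75.8% and 81.9%, at 20 to 50 kb 79.5% and 79.4%, and at 50 to 100 kb 78.1% and 84.3%. Beyond 100 kb they were 56.4%, over only 185 CpGs, and 84.7%. Across the border of the set at 2 kb, CpGs of internal coding exons had a level of 54.0% just inside 2 kb of a TSS (1.5 to 2 kb) and of 61.6% just beyond it (2 to 2.5 kb). The 22612 internal coding CpGs within 2 kb of a TSS averaged 34.4%.

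**Figure D1:**
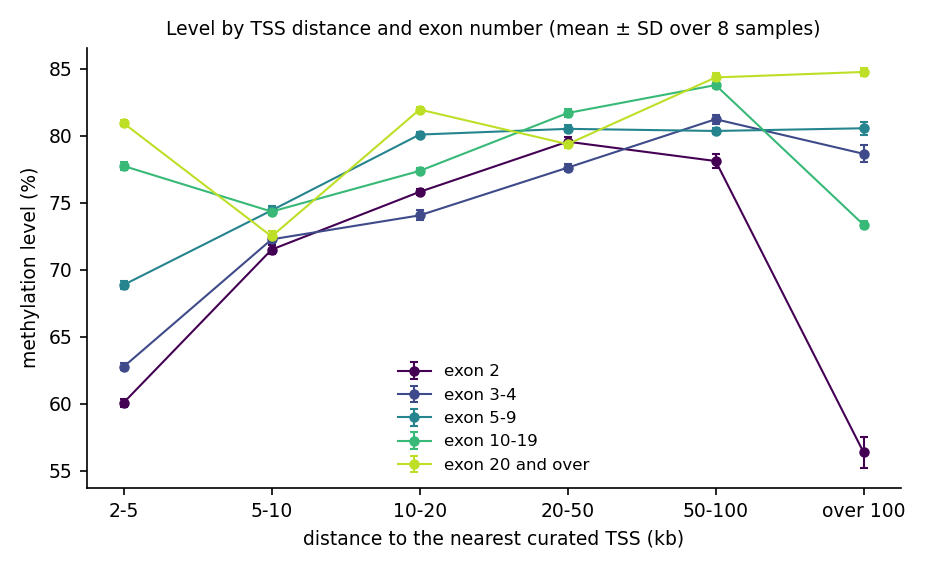
Methylation level (%) of internal coding exons against the distance to the nearest curated TSS (kb), with 1 line for each class of exon number; points are means and bars SD over the 8 samples. At 2 to 5 kb the lines span 60.1% to 80.9% in the order of exon number, and from 5 kb on they cross.

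Length and CpG number gave other patterns. The level was 76.2% in exons below 80 bases, rose to 78.1% in those of 120 to under 160 and of 160 to under 200 bases, fell to 69.0% in those of 400 to under 1000 bases and was 76.0% in those of 1000 bases or more. Exons with 1 covered CpG had the highest level, 80.1%, those with 2 had 76.5%, those with 3 to 4 and with 5 to 9 both had 78.9%, those with 10 to 19 had 76.4%, and those with 20 or more had 68.8%. In this last class the level differed with length, with 62.8% in exons of 400 to under 1000 bases and 75.2% in those of 1000 bases or more. By CpG density, CpGs in exons with an observed over expected ratio of 0.8 or more had a level of 57.5% and 32.0% of them were below 20%, against 79.7% and 4.19% at a ratio of 0.2 to 0.4. Exon by exon these relations were weak. Across 12527 exons with at least 3 covered CpGs, which share the 8 libraries, the Spearman correlation with the level was 0.117 for exon number, 0.0996 for distance to the TSS, −0.0475 for length and 0.0138 for the CpG ratio.

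The longest and the richest exons show how unlike exons of the same class can be. The exon with most covered CpGs, 243, was exon 2 of the zinc finger gene Zfp865, with a level of 83.9%. A predicted transcript starts 428 bases from it. Exon 12 of Spen, which encodes a repressor of transcription that acts in X inactivation, held 192 CpGs at 89.2%, and exon 5 of Shroom3, which encodes an actin-binding protein of epithelial folding, held 152 at 86.8%. Exon 2 of Skor2, which encodes a corepressor of Purkinje neurons, held 157 at 3.30%, and lay 2226 bases from a TSS. The longest exon with at least 5 covered CpGs was exon 275 of Ttn, which encodes the muscle spring titin, with 17106 bases, 105 covered CpGs and a level of 91.5%. Exon 7 of Xirp2, an actin-binding protein of muscle, with 9265 bases, had 85.6%, and exon 2 of Eppk1, which encodes the keratin-binding epiplakin, with 9121 bases, had 84.2%. A predicted transcript of Xirp2 starts within 244 bases of that exon's CpGs.

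**Figure D2:**
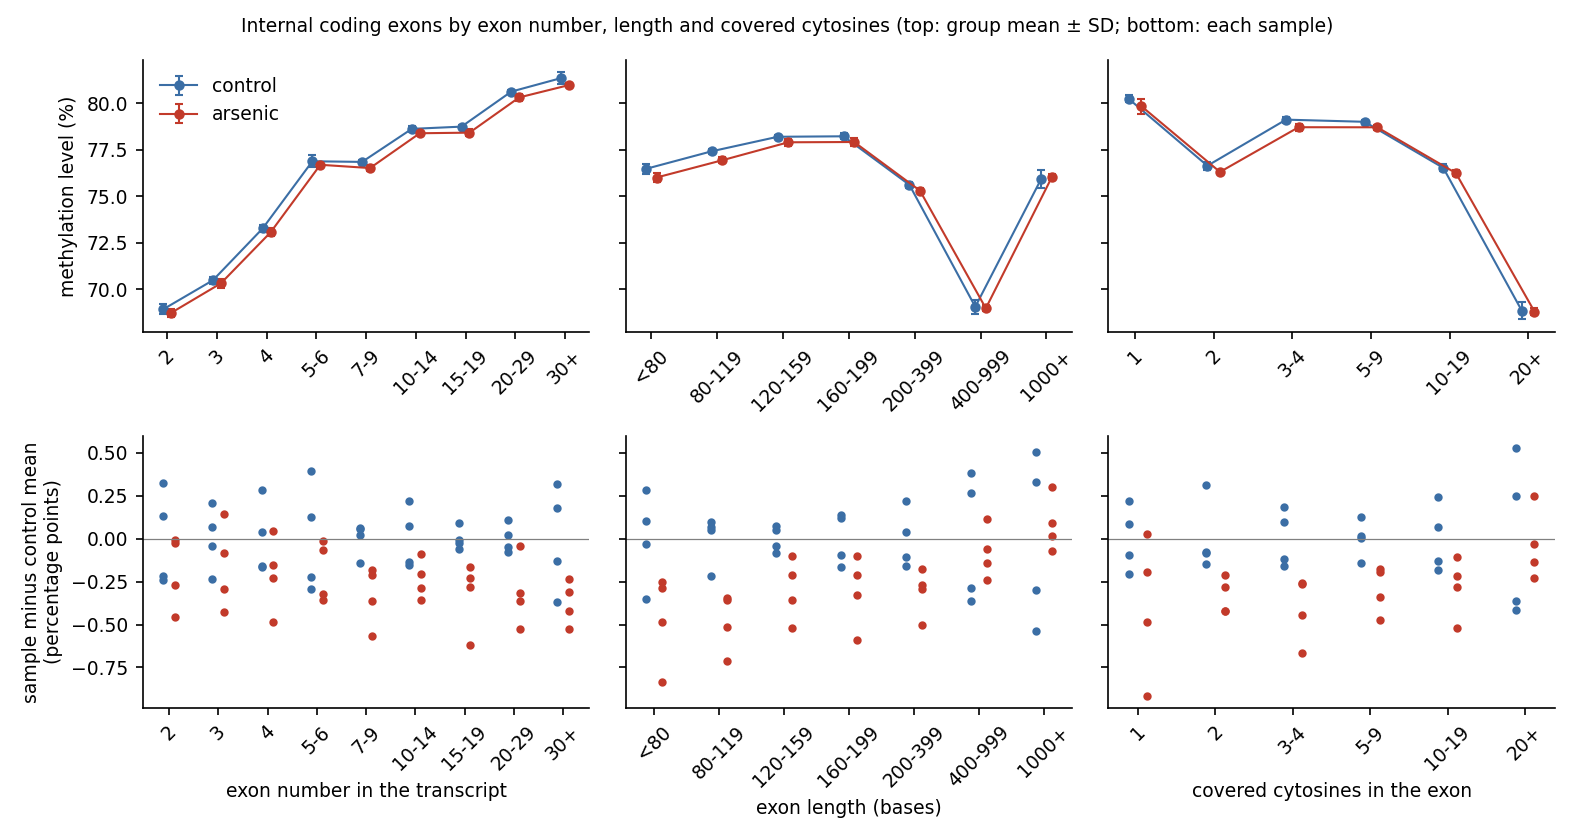
Top row, methylation level (%) of internal coding exons by exon number, exon length (bases) and covered CpGs per exon, as group means ± SD over 4 samples; bottom row, each sample minus the control mean (percentage points). The level climbs from 68.8% to 81.2% over the exon numbers, dips to 69.0% at 400 to under 1000 bases, and falls to 68.8% at 20 or more CpGs, and the widest difference between group means, −0.482 points, is small beside these steps.

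The level differed with the place of a CpG in the reading frame. CpGs whose C is the first base of a codon, which are arginine codons, had a level of 78.2%, against 74.5% where it is the second base and 74.5% where it is the third. The first base was also the highest outside CCGG, with 77.1%, 73.6% and 74.1%, and within CCGG, the site of MspI, with 81.4%, 78.7% and 78.1%. The same was seen in exons numbered 2, with 72.2%, 66.9% and 67.2%, and in those numbered 20 or more, with 82.4%, 79.5% and 80.1%. Outside CCGG the arginine codons CGA, CGC, CGG and CGT had 77.0%, 77.2%, 77.7% and 76.0%. The codons that end in CpG had 75.3% for ACG (threonine), 73.7% for TCG (serine), 72.5% for CCG (proline) and 72.2% for GCG (alanine). All 4 arginine codons lay above the other 4. The SD over the 8 samples was between 0.165 and 0.292 points for these 8 codons. It measures how repeatable a codon's mean was between libraries, not how much CpGs of the same codon vary. The differences between codons were not tested. CpGs in CCGG had 80.03% and the others 75.0%. The coding strand and its complement had like levels, 75.8% and 75.9%.

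The first and last bases of the exon stood above the intron bases next to them. In the 20 intron bases before the exon, at the acceptor, the level was 71.0%, and in the first 20 bases of the exon it was 75.6%, rising to 78.6% at 81 to 100 bases. At the other end it was 77.0% in the last 20 bases of the exon and 75.9% in the first 20 bases of the intron, and fell to 73.5% at 41 to 60 bases. Over whole regions, 417351 CpGs of distal introns of the same genes, which are in no exon and more than 2 kb from a TSS, had a level of 71.4%, and 39749 CpGs of distal last coding exons had 64.6%. The internal coding exons exceeded the introns in all 8 samples, by 4.44 points ± 0.257 (SD, n = 8, from 4.02 to 4.68), with a p of 0.00781 in a two-sided exact sign-flip test, the smallest this test can give.

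**Figure D3:**
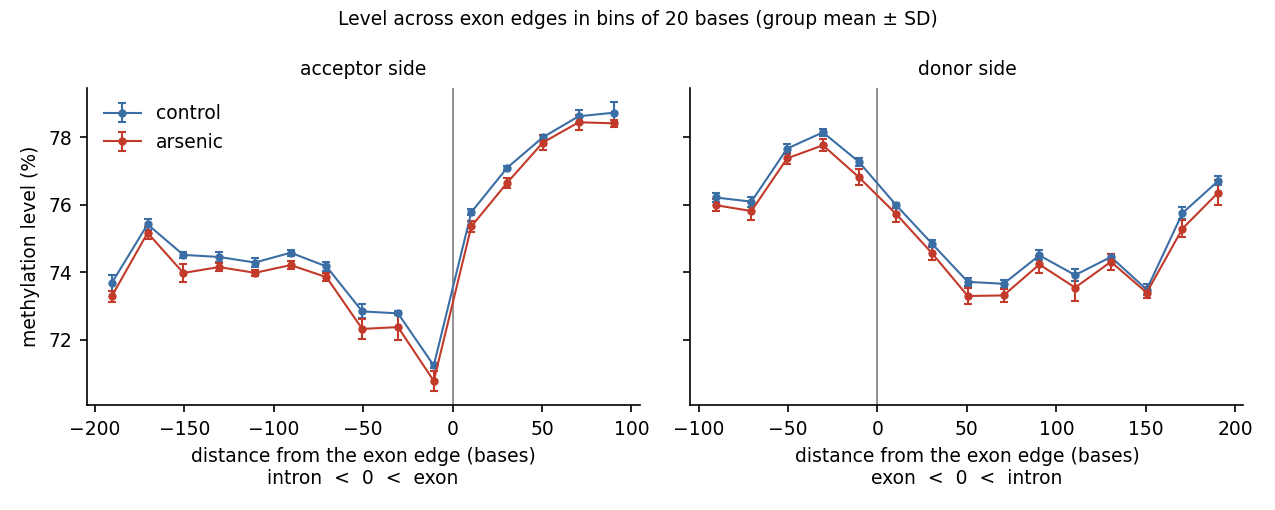
Methylation level (%) in bins of 20 bases against the distance from the exon edge, on the acceptor side (intron left, exon right) and the donor side (exon left, intron right), as mean ± SD of 4 control and 4 arsenic samples. The lowest bin, 71.0% over both groups, is the intron sequence just before the acceptor, and the arsenic line runs below the control line on both sides.

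Control and arsenic samples were then compared over all internal coding exons, to ask whether gestational arsenic left a difference in this sequence. The level was 75.87%, 75.88%, 76.19% and 75.99% in control samples 1 to 4, and 75.83%, 75.71%, 75.51% and 75.87% in arsenic samples 1 to 4. The groups touched, since arsenic sample 4 lay just above control sample 1. The control mean was 76.0% ± 0.149 and the arsenic mean 75.7% ± 0.160 (SD, n = 4 each), a difference of −0.251 points with a p of 0.0571 in a two-sided exact permutation test, whose smallest possible p is 0.0286. The call turns on weighting, on the distance limit and on 1 sample. With each exon weighted equally the difference was −0.335 points, beyond 5 kb of a TSS −0.253 points and without arsenic sample 4 −0.299 points, each with a p of 0.0286 by the exact permutation test. With CpGs weighted by coverage it was −0.494 points with a p of 0.143 by the same exact test.

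The distal introns of the same genes fell by 0.540 points, from 71.7% ± 0.180 to 71.1% ± 0.202, without overlap (p = 0.0286, exact permutation test). The difference in the exons minus that in the introns was 0.288 points with a p of 0.171 in the exact permutation test, so a smaller difference in the exons was not shown. Last coding exons had 64.6% in both groups, and the difference in internal exons minus that in last exons was −0.184 points (p = 0.429, exact permutation test). Within level classes, set by the mean over all 8 samples, the difference in internal exons was −0.515 points for CpGs below 20%, −0.651 at 20% to 80% and −0.0765 above 80%, and in introns −0.933, −1.003 and −0.215 points. Both regions differed least between the groups above 80%, where 67.2% of the exon CpGs and 57.8% of the intron CpGs lay.

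**Figure D4:**
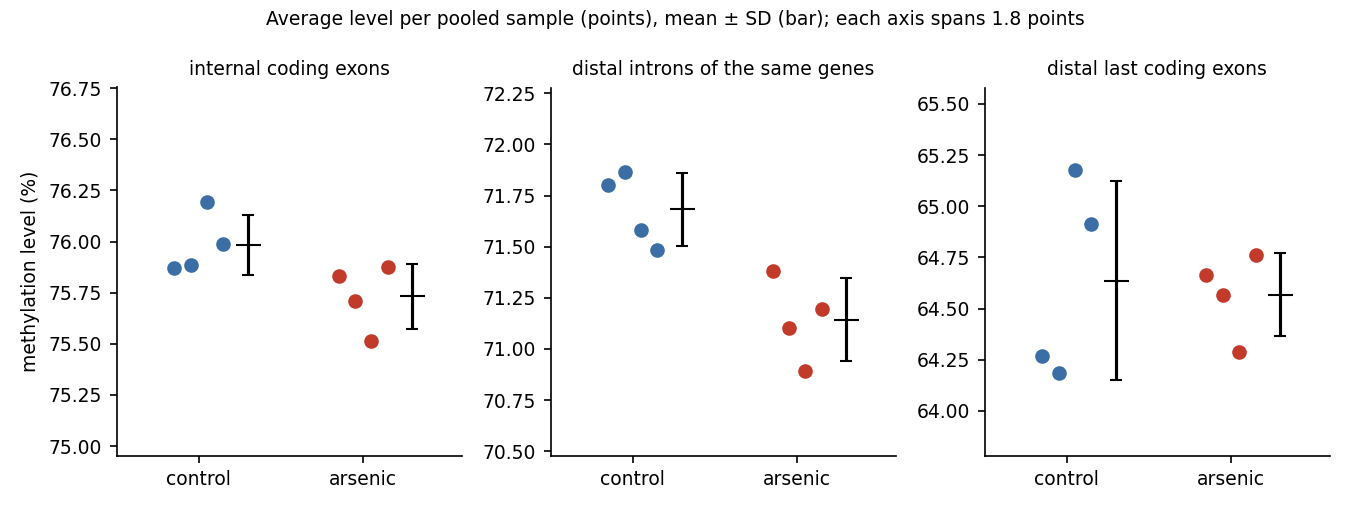
Average methylation level (%) of each pooled sample (points) in internal coding exons, distal introns of the same genes and distal last coding exons, with mean ± SD of the 4 samples a group beside them; each axis spans 1.8 points. The exon groups touch near 75.87%, the intron groups are apart, and the last exons overlap.

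By exon number, length and covered CpGs, the arsenic mean was lower in 21 of 22 classes, which hold the same CpGs sorted in 3 ways. The largest differences were −0.482 points in exons of 80 to under 120 bases (77.4% ± 0.148 against 76.9% ± 0.172), −0.467 points below 80 bases and −0.407 points in exons with 3 to 4 covered CpGs. The exception was exons of 1000 bases or more, with 0.0842 points. In 8 classes the groups did not overlap, with a p of 0.0286 each in the exact permutation test. After Benjamini-Hochberg adjustment 0 of the 22 passed, with 0.0786 as the smallest adjusted p of the exact permutation test. The p of 0.0286 is the smallest this test can give, and with 8 of 22 classes there no adjusted p could be lower. The count of 0 therefore cannot decide whether these classes differed. The 8 classes were exons 7 to 9 and 15 to 19, lengths of 80 to under 120, 120 to under 160 and 200 to under 400 bases, and 2, 3 to 4 and 5 to 9 covered CpGs. Exons 2, 3 and 4, nearest to the TSS, differed by −0.190, −0.166 and −0.206 points, and exons numbered 30 or more by −0.374 points (81.4% ± 0.311 against 81.0% ± 0.126).

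Single exons did not pass the test. Counts were summed over the CpGs of each of 12527 exons with at least 3 covered CpGs and compared by logistic regression with overdispersion scaling, adjusted over all 31194 exon units of the table. The number called at a q of at most 0.01 and at least 10 points was 0, as it was over all exon units (0%), and 517 had an unadjusted p under 0.05 (4.13%, against 4.9% of all exon units). By limma 0 passed and 495 had an unadjusted p under 0.05 (3.95%, against 5.20% of all exon units). The coverage-weighted level was lower in arsenic samples in 6912 exons (55.2%, against 54.4% of all exon units). By unweighted level, the groups did not overlap in 226 exons that were lower (1.8%, against 1.78%) and in 135 that were higher in arsenic samples (1.08%, against 1.14%).

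The 4 exons lower in arsenic samples with the smallest p among those without overlap and the 4 higher ones that follow had an adjusted p of 0.916 by the overdispersed logistic regression, and are the top of a list in which nothing passed. Exon 8 of Rara, the retinoic acid receptor alpha, through which vitamin A acts on spermatogonia and their supporting Sertoli cells, had levels of 32.4%, 35.3%, 29.6% and 30.6% in control and 14.7%, 11.2%, 17.4% and 20.6% in arsenic samples. The groups were well apart, at 7 CpGs on chr11:98971582-98971786. Exon 8 of Sema3e, a guidance ligand of blood vessels and axons, had 89.8%, 87.6%, 88.3% and 89.7% in control and 79.4%, 79.7%, 74.9% and 79.7% in arsenic samples. Exon 8 of Sec14l1, which encodes a protein with a lipid-transfer fold, was even in control samples, from 88.7% to 88.9%, and lay between 75.5% and 82.7% in arsenic samples. Exon 4 of Wfdc8, a gene of the whey acidic protein family, went from 33.3% ± 4.35 in control to 18.9% ± 4.14 in arsenic samples, at 4 CpGs.

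Among the higher exons, exon 5 of Gramd1a, which encodes a carrier of cholesterol at membrane contacts, had 76.0%, 77.3%, 76.1% and 78.8% in control and 90.5%, 89.3%, 88.0% and 87.0% in arsenic samples, at 3 CpGs read at least 64 times each. Exon 3 of Stox2, a winged-helix gene, held 64 CpGs over 2266 bases and moved little but evenly, from 88.9% ± 1.12 to 93.3% ± 0.939. Exon 17 of Ankrd26, which encodes an ankyrin-repeat protein, went from 70.8% ± 2.07 to 80.7% ± 2.58. Exon 3 of Grin2a, a subunit of the NMDA receptor, was nearly unmethylated and went from 3.96% ± 1.31 to 10.8% ± 2.34, at 13 CpGs and 3341 bases from the TSS.

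**Figure D5:**
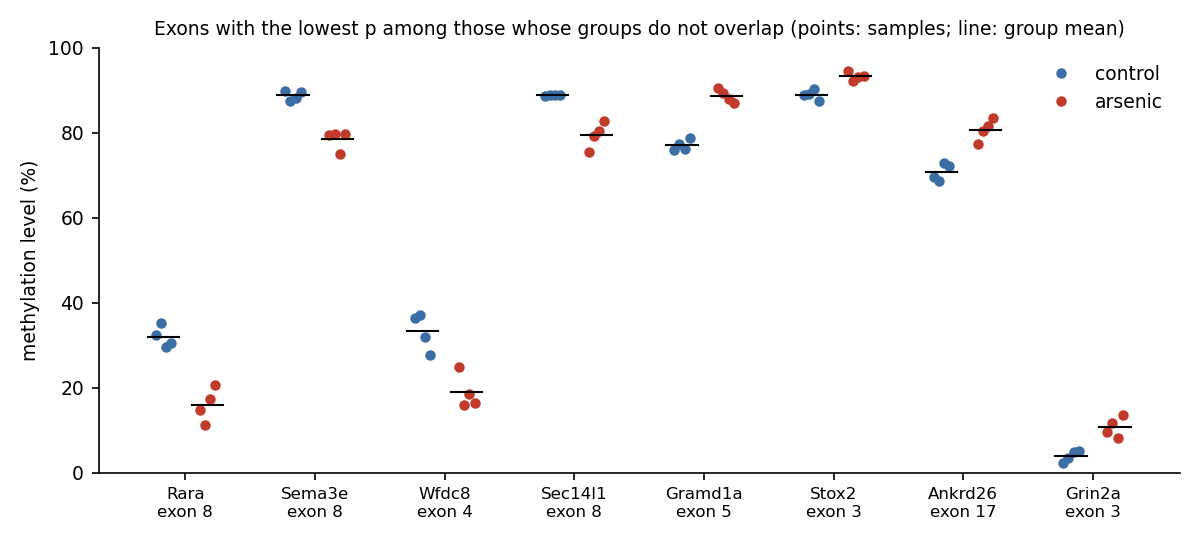
Methylation level (%) of each sample (points) and group mean (lines) in the 8 exons with the smallest p among those whose groups did not overlap, the 4 lower in arsenic samples on the left. Exon 8 of Rara shows the widest shift, 32.0% to 16.0%, and none of the 8 passed after adjustment.

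At single CpGs the rule of the study was applied to the whole table, with logistic regression on the counts of each group, a q of at most 0.01 and at least 10 points, which gives differentially methylated cytosines (DMCs). Internal coding exons held 479 hypoDMCs (0.424% of their CpGs, against 0.323% of all and 0.396% in distal introns) and 439 hyperDMCs (0.389%, against 0.228% of all and 0.218% in distal introns). Together they made up 0.813% of the CpGs, against 0.552% of all and 0.614% in distal introns. HypoDMCs were 52.2% of these DMCs, against 58.6% of all DMCs of the table and 64.5% in the introns. HyperDMCs were the more numerous when control sample 3 (480 hypoDMCs and 514 hyperDMCs), control sample 4 (510 and 517) or arsenic sample 3 (452 and 458) was left out. The 918 DMCs fell in 766 exons of 699 genes, and 675 of these exons held 1. The groups did not overlap at 2789 of all internal coding CpGs (2.47%, against 2.1% of the table and 2.62% in the introns). They did not overlap at 392 of the 918 DMCs (42.7%). The DMCs were picked for a group difference in these same samples, which by itself raises that share.

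This test treats every read as independent and ignores the spread between pools. The median ratio of observed to binomial variance was 1.76 at internal coding CpGs and 2.29 at the DMCs. With that spread in the test 0 DMCs were called, and limma called 0, with 7421 CpGs (6.57%, against 5.11% of all) at an unadjusted p under 0.05. The counts were also more often even than odd. Whether both mates of a read pair were counted was not settled here, and if they were, the coverages and q values given for single CpGs rest on fewer fragments than the counts show. In internal coding exons 107960 unmethylated counts were 2 and 65955 were 1, and of those from 1 to 20 between 63.4% and 64.2% were even in each sample. Over all cytosines this share was lower, between 59.3% and 60.6%. For methylated counts it was 57.6% to 59.3% in internal coding exons and 56.3% to 57.7% over all cytosines. With all counts divided by 2, an alternative added after the counts were seen, 5 DMCs were left in internal coding exons and 15 in the whole table.

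The largest of these differences among DMCs whose groups did not overlap, 3 in each direction, are given with their sequence, in the same form as above, with the CpG in capitals at the centre of 29 bases on the coding strand.
Sall4 exon 2, chr2:168755531-168755559, minus strand: ggggcagtgagtgcCGcttctcactatgc
Arhgap27 exon 4, chr11:103340326-103340354, minus strand: ggccacgtcgcctCGctcagctgcagctc
Hmcn2 exon 66, chr2:31420908-31420936, plus strand: ttccactctcccagCGcaccctcctccac
Car11 exon 4, chr7:45702488-45702516, plus strand: cgacctgtggtcaaCGtgtctgggggtcc
Neu1 exon 5, chr17:34934491-34934519, plus strand: cccaccctgagttcCGtgagtgcctgagg
Plch2 exon 7, chr4:155000691-155000719, minus strand: cggggcaggtagtCGtgagccgagcccag

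The largest fall was in exon 2 of Sall4, a zinc finger factor of pluripotent cells and undifferentiated spermatogonia, at position 168755545 of chromosome 2. The level there was 95.2%, 100%, 87.5% and 90.9% in control and 64.3%, 47.2%, 50% and 50% in arsenic samples, a coverage-weighted difference of −42.2 points (q = 9.35e-12, likelihood-ratio test on pooled counts), at 12 to 53 reads. The whole exon, with 73 CpGs, stood at 85.1% ± 0.688 in control samples and 84.1% ± 1.36 in arsenic samples, and its other DMC, at position 168754593, rose by 21.9 points. In exon 4 of Arhgap27, which encodes a GTPase-activating protein, 2 CpGs at positions 103340340 and 103340254 of chromosome 11 fell by 36.5 and 34.2 points. At the first, control samples had 61.0%, 80.8%, 66.7% and 66.7% and arsenic samples 45%, 18.8%, 35.4% and 29.6%. Of the exon's 22 CpGs 4 were hypoDMCs, and its level was 31.4% ± 5.72 in control and 22.1% ± 7.61 in arsenic samples. The second rested on control sample 2 (84.6%, the others from 39.1% to 42.9%), and without it the difference was −23.2 points with a q of 0.0162 in the likelihood-ratio test.

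In exon 66 of Hmcn2, which encodes the matrix protein hemicentin 2, position 31420922 of chromosome 2 went from 51.4%, 47.4%, 40.7% and 40.7% in control to 16.7%, 0%, 6% and 27.6% in arsenic samples. Car11, which encodes a carbonic anhydrase-like protein without enzyme activity, rose at position 45702502 of chromosome 7 from 66.7%, 71.4%, 68.4% and 45.5% to 100% in all 4 arsenic samples, at 10 to 29 reads. Neu1, the lysosomal sialidase, rose at position 34934505 of chromosome 17 from 63.5% ± 12.04 to 95.6% ± 5.19. This C is the last base of exon 5 and its G the first base of the intron. Plch2, which encodes a phospholipase C, rose at position 155000705 of chromosome 4 from 57.8% ± 19.7 to 91.4% ± 5.83, in the longer of 2 forms of exon 7. Gmip, a further GTPase-activating protein, rose at position 69813831 of chromosome 8 from 59.3% ± 18.4 to 92.1% ± 6.85 with a q of 0.00938 in the likelihood-ratio test. Its q rose above 0.01 in 5 of the 8 fits that each left out 1 sample, the highest being 0.0629 without control sample 3.

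The 5 DMCs left when the counts were divided by 2 are named here after their values were seen. They were those of Sall4 and Plch2 above and 3 others. In exon 11 of Skap1, an adaptor of T cells, the level was 73.8%, 69.9%, 72.3% and 68.4% in control and 53.8%, 50%, 49.7% and 47.8% in arsenic samples, at 114 to 187 reads. In exon 4 of Setbp1, which encodes a DNA-binding partner of the protein SET, it went from 83.0% ± 2.23 to 94.0% ± 3.45, at 192 to 297 reads. In exon 17 of Dennd4b, an exchange factor of Rab proteins, it was 100% in every control sample and 50%, 79.4%, 92.0% and 83.8% in arsenic samples. The Skap1 CpG had a ratio of observed to binomial variance of 0.366, while those of Setbp1 and Dennd4b had ratios of 2.51 and 3.19.

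A few exons held several DMCs. Of the 766 exons with a DMC, 27 held 3 or more, and the directions in them were mostly uniform. The same count was not made over all exon units. Some of these exons held many covered CpGs, up to 243 in exon 2 of Zfp865, which gives more chances of a call. Exon 3 of Neurl1b, a ubiquitin ligase of Notch ligands, held 10, of which 9 were hypoDMCs, among 54 covered CpGs at a low level (11.6% ± 4.42 in control, 8.10% ± 2.41 in arsenic samples). Exon 4 of Tnrc18 held 7 hyperDMCs and 1 hypoDMC among 95 (85.7% ± 2.32 to 88.6% ± 0.337), and exon 5 of Shroom3 held 7 hyperDMCs among 152 (85.3% ± 2.82 to 88.3% ± 1.95). Exon 3 of Fbxo41, an F-box gene of neurons, held 6 hyperDMCs that rested on arsenic sample 1, with 36.4% to 40% there, 0% to 16.7% in the other arsenic samples and 0% in every control sample. Exon 5 of the RNA-binding gene Rbm47 held 6 hypoDMCs (94.5% ± 3.04 to 87.5% ± 2.20), and exon 18 of Cux2, a homeobox factor of neurons, held 5 hypoDMCs. Neighbouring CpGs share reads and are not independent, and none of these exons passed the exon test.

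Gene groups differed in level. In 61 homeobox and other developmental transcription factor genes 64 exons had at least 5 covered CpGs, their median level was 15.4%, and 33 of the 64 (51.6%) were below 20%, against a median of 87.3% and 6.73% over all internal coding exons. The lowest was exon 2 of Irx5, an Iroquois homeobox factor, with 1.17%, only 2024 bases from a TSS. The highest was exon 8 of Foxk1, a forkhead factor, with 97.0%. The largest difference between groups was in exon 9 of Pax8, a factor of thyroid and kidney, with 56.2%, 55.9%, 60.2% and 58.6% in control and 75.8%, 62.1%, 68.3% and 68.4% in arsenic samples. The groups did not overlap, and the adjusted p was 0.916 by the overdispersed logistic regression. In the list 55 of 91 exons with 3 or more CpGs were lower in arsenic samples (60.4%, against 55.2% of internal coding exons), with a median difference of −0.399 points. These counts and medians, here and in the lists below, are of coverage-weighted levels.

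Collagens, the fibre proteins of the matrix, are built from short exons, here with a median of 63 bases, and none of their 69 exons with at least 5 CpGs was below 20%. Their median was 84.8%, from 23.9% in exon 20 of Col7a1, the collagen that anchors skin, to 96.0% in exon 52 of Col2a1, the collagen of cartilage. Of 136 exons 85 were lower in arsenic samples (62.5%), with a median difference of −0.754 points, the most negative of the 10 lists. Exon 8 of Col2a1 differed most, from 77.8% ± 5.54 to 65.1% ± 7.36, without overlap and at a lowest coverage of 10 reads. In Col7a1 as a whole, 28 covered exons with 92 CpGs averaged 74.0% ± 1.65 in control and 72.2% ± 0.561 in arsenic samples.

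Laminins, fibrillins and other large matrix proteins had a median of 88.8% over 162 exons, with 4 below 20%. Exon 7 of Ltbp4, a binding protein of latent TGF beta, had 1.43%, 336 bases from a predicted TSS, and exon 87 of Hspg2, the heparan sulfate proteoglycan perlecan, had 98.6%. The protease gene Adamts12 had the largest difference, in exon 21, from 74.7% ± 6.95 to 65.5% ± 6.36. Cadherins and related genes had a median of 88.6% over 65 exons, from 4.16% in exon 11 of Dchs1 to 97.8% in exon 18 of Clstn1, a calsyntenin. They were the list with the smallest share of exons lower in arsenic samples, 38 of 89 (42.7%), with a median difference of 0.365 points. Exon 10 of Celsr3, a cadherin of planar polarity, differed most, from 84.6% ± 4.44 to 89.7% ± 4.45.

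Voltage-gated ion channels had a median of 84.3% over 110 exons. The exon of Cacna2d2 shown above was their lowest and exon 17 of the potassium channel gene Kcnt1 the highest, with 97.7%. Exon 22 of Cacna1a, the pore of P/Q-type calcium channels, went from 36.5% ± 17.5 to 20.6% ± 3.14, with the control samples at 40%, 22.9%, 60% and 23.3%, so the spread within control samples exceeded the difference. Notch, LDL receptor and Wnt pathway receptors had a median of 91.0% over 86 exons, and 71 of 114 were lower in arsenic samples (62.3%). Exon 7 of the Notch ligand gene Dll3 had 1.49%, exon 50 of Lrp1, an endocytic receptor, had 97.4%, and exon 10 of the Notch ligand gene Dll1 went from 74.5% ± 10.1 to 87.4% ± 5.62.

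Myosins and axonemal dyneins, the motors of muscle, cargo and cilia, had a median of 88.4% over 171 exons. Their lowest was exon 29 of the muscle myosin gene Myh7b with 0.670%, their highest exon 17 of Myo5a, a motor of vesicles, with 97.5%. Exon 60 of Myo15b went from 56.9% ± 9.66 to 45.8% ± 4.66. Giant muscle and cytoskeletal genes had a median of 86.4%, and 15 of 157 exons (9.55%) were below 20%, the lowest being exon 33 of the spectrin gene Sptbn4 with 1.11%. Exon 296 of Ttn had 97.4%, and exon 57 of Ryr1, the calcium release channel of muscle, went from 27.4% ± 4.93 to 17.1% ± 5.01. Ttn had more covered internal exons than any other gene, 47 with 507 CpGs, at 90.4% ± 0.149 in control and 90.5% ± 0.291 in arsenic samples. Lrp1 followed with 31 exons at 89.8% ± 0.275 and 89.3% ± 0.788.

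DNA and histone methylation enzymes had a median of 90.3% over 88 exons and none below 20%. Exon 15 of Setd1a, a methyltransferase of histone H3 lysine 4, was both the lowest and the one that differed most, from 25.0% ± 1.99 to 30.8% ± 11.3, and exon 3 of Kdm1b, a demethylase of the same mark in oocytes, had 97.8%. The list of piRNA pathway and meiosis genes had 16 exons with at least 5 CpGs at a median of 86.8%. Exon 22 of Brca2, a gene of recombination, had 22.3%, 852 bases from a predicted TSS, the mismatch repair gene Msh3 had 96.2% in exon 13, and Msh6 went from 69.9% ± 4.43 to 66.6% ± 2.16 in exon 4. In none of the 10 lists did an exon pass the test.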

How the data were processed

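RRBS of 4 control and 4 arsenic pooled samples was used. Per the labels and methods, the authors used Trim Galore 0.6.5 for trimming, Bismark 0.22.3 for mapping to mm10 and methylKit 1.22.0 for joining the samples (versions from the submitters' processing notes). The deposited table gives counts per cytosine and strand, not normalized: coverage, C reads and T reads, with at least 10 reads in every sample. Reads on cytosines numbered from 96428439 to 133406260 per sample, and from 4471087 to 6473192 in internal coding exons, at a median coverage of 30 to 44. Single cytosines are therefore imprecise, and PCR duplicates cannot be told from independent molecules in RRBS.

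The curated RefSeq annotation of GRCm38.p6 held 37867 NM transcripts. A cytosine took its exon number from the transcript with the longest coding sequence, and overlapping coding segments formed 1 exon. A level is C reads over coverage, and a regional level is the unweighted mean over cytosines. Group means were compared by two-sided exact permutation over the 70 assignments of samples. DMCs were called by the likelihood-ratio test of logistic regression over 2130064 cytosines of chromosomes 1 to 19, X and Y, in place of methylKit, with Benjamini-Hochberg q. Exon counts were tested by an overdispersion-scaled logistic regression (F test). Both were tried on simulated counts at the depths of exons with at least 3 cytosines. The likelihood-ratio test was not simulated at the depths of single cytosines. The software was limma 3.58.1 (pseudocount 1) in R 4.3.3, and scipy 1.17.1, numpy 2.4.6, matplotlib 3.10.9 and pandas 2.3.3 in Python 3.11.15.

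Named exons were the 6 lowest and 4 highest with at least 10 cytosines (1 per gene), the 4 with most cytosines, the 3 longest, the 4 lower and 4 higher with the smallest p and no overlap, in each of 10 gene lists the lowest, the highest and the one that differed most, and the 3 genes with most exons. Named DMCs were the 4 largest in each direction without overlap. Exons with many DMCs were named after their values were seen. The members and lists were chosen with earlier results of these data known. Alternatives concerned coverage, strands, TSS distance, weighting, tests, thresholds, single replicates and pairing.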

Additional observations from a re-analysis of the deposited data

Results flagged for a closer look

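In 172 groups of 4 samples (the classes and the named exons and cytosines), 11 samples stood far from the other 3 of their group, where chance gives about 1 in 20, or 8.6. Control sample 4 was low in exons of 80 to under 120 bases (77.21%, the others from 77.48% to 77.53%), and control sample 1 was high in exons with 2 covered cytosines (77.0%, the others from 76.5% to 76.6%). Among nearly unmethylated exons, arsenic sample 2 had 1.72% in exon 13 of Celf4 and 0.974% in exon 7 of Fcmr, and control sample 1 had 0.350% in exon 38 of Cacna2d2, where the other 3 samples of the group were at 0%. Arsenic sample 1 had 9.92% in exon 11 of Dchs1 (the others from 0.556% to 1.93%) and 1.84% in exon 33 of Sptbn4 (the others from 0.401% to 0.602%). Control sample 1 had 94.8% in exon 8 of Foxk1 (the others from 97.9% to 98.3%), and arsenic sample 3 had 74.9% in exon 8 of Sema3e (the others from 79.4% to 79.7%). At single cytosines, arsenic sample 1 had 64.3% at the Sall4 site, nearest to the control samples, and control sample 2 had 84.6% at position 103340254 in Arhgap27.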

How the results depend on the processing

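The numbers of hypoDMCs and hyperDMCs depended most on the processing. They were 256 and 212 at a coverage of at least 30, 261 and 210 with both strands of a CpG summed, 138 and 121 at 20 points or more, 3 and 2 with counts divided by 2, an alternative added after the data were seen, 0 and 0 with overdispersion scaling and 0 and 0 by limma. The number of CpGs tested also changed with the coverage limit and with strands summed. Except for counts divided by 2, counts over all cytosines were not made under these alternatives, so shares cannot be compared. The difference in the mean level had a p of 0.0286 by the exact permutation test beyond 5 kb of a TSS (−0.253 points) and with exons weighted equally (−0.335 points). Over 18 alternatives it lay between −0.494 and −0.179 points, and between −0.299 and −0.179 points with 1 sample left out, past the threshold only without arsenic sample 4. Against last exons the difference turned to 0.212 points with coverage-weighted means (p = 0.743, exact permutation test), and the cause was not tested. The contrast with introns in level (4.14 to 6.36 points), that in difference (0.137 to 0.391 points, exact permutation p from 0.0571 to 0.6), the 0 classes past adjustment and the 0 exons called kept their calls under every alternative run. For the classes and the contrast in difference, the alternative with the replicate number as a block could not change the call. The smallest p of its exact sign-flip test is 0.125. Replicate numbers are shared between the groups, but same-numbered samples did not deviate together (correlations from −0.00535 to 0.00963). With the number as a replicate block the difference in the mean level stayed at −0.251 points (p = 0.125, exact sign-flip test, the smallest 4 pairs allow), and a Cochran-Mantel-Haenszel test stratified by the number, which changes the test as well as the block, gave 331 hypoDMCs and 303 hyperDMCs. Coverage limits single cytosines, and exons with few of them.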
